A study of Mus musculus with 146 samples.

Results

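Gpr3, Wee2, Mos, Cdc25a, Cdc25b, Pde3a, Adcy3, Fzr1 and Fbxo5 are genes with known roles in the arrest of the oocyte in meiotic prophase or in the release from it. The 9 genes were picked by symbol among the 52605 gene symbols measured, and all 9 were found. Germ cells were picked by mouth pipette from enzyme-digested ovaries of C57/BL6J mice at D0.5 (5 ovaries, pups of 1 litter), and each was made into its own Smart-seq2 library of polyA RNA with spike-in RNA. All cells shared 1 strain, age, tissue and condition, and no treatment or genotype was compared. The labels name no animal for a cell, so the cells are 1 sample and the values below are descriptions without a test.

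A fully grown mouse oocyte holds its nucleus intact for weeks because the cyclin-dependent kinase CDK1 is kept inactive. The receptor GPR3 signals through Gs to adenylyl cyclase, cAMP activates protein kinase A, and this kinase keeps the inhibitory kinase WEE2 (also WEE1B) active and the phosphatase CDC25B inactive. PDE3A breaks cAMP down when arrest ends, APC/C with its activator FZR1 (CDH1) holds cyclin B low, FBXO5 (EMI1) restrains APC/C, and MOS drives the MAPK pathway and is best known for the later arrest at metaphase II.

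Of 146 libraries, 1 was left out because its Ddx4 (Vasa, a germ cell helicase) was listed at 0 TPM, whereas the lowest kept library had 7.49 TPM. In 7 pairs, the libraries were near-identical, with Pearson's r of log2(TPM + 1) between 0.986 and 0.994, whereas no other pair exceeded 0.876. Their counts still differed by 1.91 to 5.17 times the sampling variance, against at least 166 times in other pairs with r over 0.8. Each pair was averaged and counted as 1 cell, so the 146 libraries gave the 3 clusters of 19, 86 and 33 cells described below. Between 4074810 and 26855273 reads (median 9498860) were assigned to genes in a kept library. The summed TPM of 5 germ cell markers was 543 to 9023 in all these cells, and that of 9 pregranulosa markers had a median of 0.239, with 10 cells at 10 TPM or more. That of 7 stroma markers had a median of 1.06, with 38 cells at 10 TPM or more and a highest value of 879 TPM, in a cell of cluster 2. Globin transcripts lifted the summed blood and endothelial markers above 10000 TPM in 11 cells, up to 324531 TPM in 1 cell of cluster 1. The counts of members called between clusters, given below, were unaltered without these 11 cells, an exclusion chosen after seeing the data, except that Adcy3 was then called lower in cluster 3 than in cluster 1.

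Cells were split into 3 clusters by 20 feature genes of oocyte development, none of them among the 9 members. Cluster 1 held 19 cells (13.8%; exact 95% interval 8.50 to 20.7%, counting error only), cluster 2 held 86 cells (62.3%; 53.7 to 70.4%) and cluster 3 held 33 cells (23.9%; 17.1 to 31.9%). As the feature genes set it, mean Sycp2 (a synaptonemal complex gene) was 495, 169 and 62.4 TPM in clusters 1, 2 and 3, mean Sohlh1 (an oocyte transcription factor gene) was 23.9, 362 and 291 TPM, and mean Zp3 (a zona pellucida gene) was 0.0943, 15.9 and 557 TPM. Median assigned reads were 9615238, 9082254 and 10711092 in clusters 1, 2 and 3. The median share of spike-in TPM in a cell was 1.04%, 1.22% and 0.674%, so the cells of cluster 3 gave the most transcript per spike-in RNA and a TPM there is a share of a larger pool.

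Promoter windows of 300 bases (250 before and 50 after the RefSeq start, build GRCm38.p6) matched 7 of the 9 genes, in 8 windows. Those of Wee2, Gpr3 and Cdc25a are shown because Wee2 and Gpr3 had larger cluster ratios than most members and Cdc25a had a small one. Wee2 lies at chr6:40442613-40442912 (+), inside the longer GENCODE gene (chr6:40439088-40466813), and the capitals mark a match to TAATTA or TAATTG, the letters that the oocyte factor NOBOX is known to bind. Gpr3 lies at chr4:133212487-133212786 (-), and the capitals mark the CCAAT box, here read as ATTGG. Cdc25a lies at chr9:109875329-109875628 (+), and the capitals mark a match to TTTGGCGC or TTTCCCGC, letters of the E2F type. All 3 are written 5′ to 3′ on the strand of the gene.
Wee2: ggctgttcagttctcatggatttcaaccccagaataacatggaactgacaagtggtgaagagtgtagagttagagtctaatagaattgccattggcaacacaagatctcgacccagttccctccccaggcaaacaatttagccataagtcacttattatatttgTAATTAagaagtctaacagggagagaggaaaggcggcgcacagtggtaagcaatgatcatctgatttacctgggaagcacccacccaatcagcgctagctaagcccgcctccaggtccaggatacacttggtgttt
Gpr3: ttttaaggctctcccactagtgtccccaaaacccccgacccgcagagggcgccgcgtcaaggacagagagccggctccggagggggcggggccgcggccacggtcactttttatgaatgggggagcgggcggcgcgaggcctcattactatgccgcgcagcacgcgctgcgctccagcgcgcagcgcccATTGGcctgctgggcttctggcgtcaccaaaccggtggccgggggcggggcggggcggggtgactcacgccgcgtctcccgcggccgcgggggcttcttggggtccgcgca
Cdc25a: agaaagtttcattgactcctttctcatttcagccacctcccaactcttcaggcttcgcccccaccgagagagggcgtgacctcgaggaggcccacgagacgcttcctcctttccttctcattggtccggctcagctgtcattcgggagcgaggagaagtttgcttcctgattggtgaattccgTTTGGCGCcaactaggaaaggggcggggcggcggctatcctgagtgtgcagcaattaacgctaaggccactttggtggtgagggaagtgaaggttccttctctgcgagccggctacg
Both strands were searched, and a match is a description of letters only. The NOBOX-type letters were in the windows of Wee2 and Cdc25a, and in 12.4% of all 32851 windows. The E2F-type letters were in the window of Cdc25a alone among the members and in 1.56% of all windows. CCAAT was in 7 of the 8 windows and in 37.4% of all, the E-box CANNTG was in 5 of the 8 and in 72.3% of all, and the cAMP response element TGACGTCA was in 0 of the 8 and in 1.79% of all.

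Fzr1 was the most abundant member over all cells, with a mean of 72 TPM (median 62.4, highest 333). It was followed in mean TPM by Fbxo5 (25.3), Wee2 (19.1), Cdc25a (14.7), Mos (7.73), Adcy3 (7.06), Gpr3 (5.54), Cdc25b (3.03) and Pde3a (2.77). The Adcy3 mean rests largely on 1 cell of 587 TPM. The order describes means over very uneven cells: the median was 7.64 TPM for Fbxo5, 9.0 for Cdc25a, 0.0550 for Pde3a and 0.0344 for Wee2, and it was 0 for Mos, Adcy3, Gpr3 and Cdc25b. The interquartile ranges of all 8 neighbouring pairs in this order overlapped. Cell by cell, Fzr1 was nevertheless lower than Fbxo5 in only 23 cells and equal to it in 8, whereas Cdc25a exceeded Wee2 in 70 cells although its mean was lower. On reads per kilobase of the longest coding transcript at equal depth, an alternative chosen after seeing the data, the same genes led (Fzr1 42.8, Fbxo5 18.3), followed by Cdc25a (10.4) and Wee2 (9.98), and Adcy3 moved down to 0.897, next to Pde3a (0.803).

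The number of members with at least 1 TPM in a cell had a median of 2 in cluster 1 (range 0 to 5), 3 in cluster 2 (0 to 7) and 6 in cluster 3 (3 to 9). The medians were 3, 4 and 7 when every cell was thinned to 4000000 reads and a member needed 1 read. By the median, cells of cluster 3 also had more genes of any kind with 1 read than those of cluster 1. The part of this in the counts of members was not tested. At least 5 members at 1 TPM were found in 1, 15 and 29 cells of clusters 1, 2 and 3, and the ranges of clusters 1 and 3 met at 3 to 5 members. The 1 cell of cluster 1 was the one with 324531 TPM of blood and endothelial markers, and without the 11 cells rich in them these counts were 0, 13 and 24, and cluster 1 reached 4 members. Only 1 cell had all 9, and 2 cells had none.

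**Figure D1:**
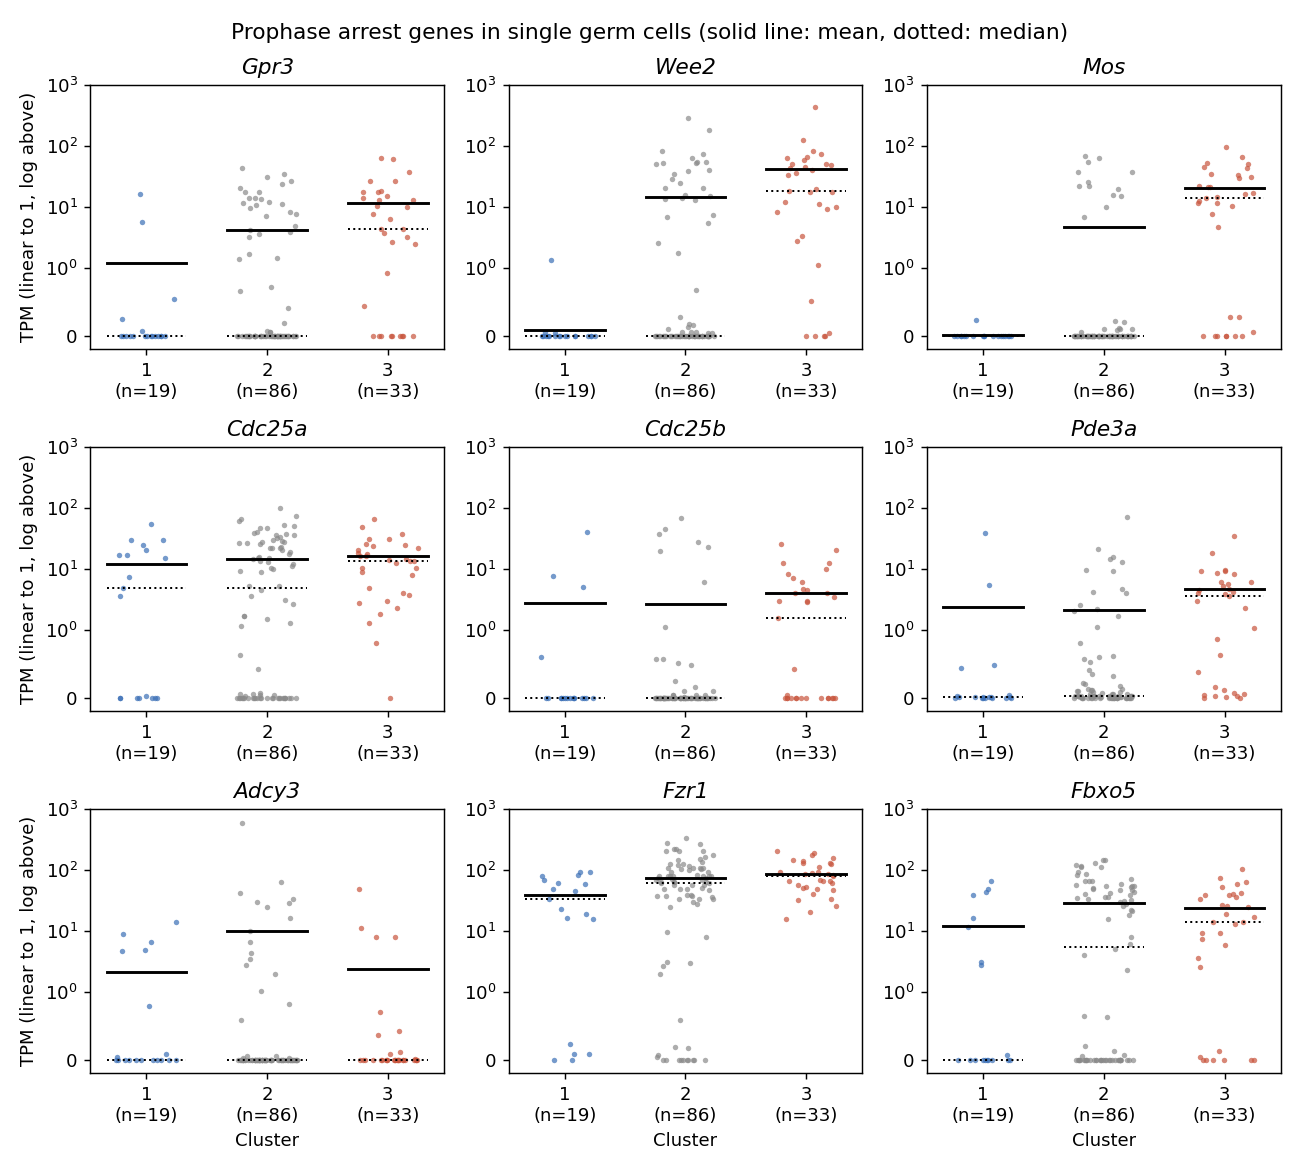
TPM of each of the 9 genes in each cell (1 point a cell) by cluster, on an axis that is linear up to 1 TPM and logarithmic above. Solid lines are means and dotted lines medians. Wee2 and Mos are near 0 in nearly all 19 cells of cluster 1 and mostly above 1 TPM in cluster 3, while Fzr1 is high in all 3 clusters and the Adcy3 mean of cluster 2 is carried by 1 point.

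Between clusters, a member was called higher or lower where the log2 ratio of mean TPM (with 1 TPM added to each mean, which understates the ratio of low genes) passed 1.5-fold. In cluster 2 over cluster 1, 6 of 9 members were higher and 0 lower, whereas 30.4% of 19603 genes that averaged 1 TPM or more in a cluster of the pair were higher and 26.8% lower. In cluster 3 over cluster 2, 4 members were higher (21.5% of 19224 genes) and 1 was lower (32% of genes). In cluster 3 over cluster 1, 6 were higher (32% of 19576 genes) and 0 were lower (37.9% of genes). All 9 members passed the filter on low values in each comparison. Wee2 and Mos averaged only 0.0751 and 0.0124 TPM in cluster 1, so they passed there through the later cluster alone. For such a gene, passing already fixes a call of higher in the comparisons with cluster 1, and the same filter was used for all genes. The median log2 ratio over members was 1.19, 0.46 and 0.90 in the 3 comparisons, beside 0.024, -0.19 and -0.15 over all genes tested. With every library counted as a cell, chosen after seeing the data, the counts higher stayed at 6, 4 and 6.

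Gpr3, which encodes the constitutively active Gs-coupled receptor that keeps oocyte cAMP high, was listed at 0 TPM in 14 of 19 cells of cluster 1, 52 of 86 of cluster 2 and 9 of 33 of cluster 3. Its TPM ran from 0 (median 0) to 16.3 in cluster 1, from 0 (median 0) to 44 in cluster 2 and from 0 (median 4.40) to 63 in cluster 3. The ranges therefore overlapped fully at the low end, and the clusters differed in how many cells had the transcript and in their highest values. At least 0.1 TPM was found in 21.1% (exact interval 6.05 to 45.6%), 36% (26 to 47.1%) and 72.7% (54.5 to 86.7%) of cells. Mean TPM was 1.20, 4.21 and 11.5, a log2 ratio of 1.25 in cluster 2 over 1 and 1.26 in cluster 3 over 2. In cluster 1, 1 cell of 16.3 TPM (39 reads) held most of the mean. Without it the log2 ratio was 1.94 in cluster 2 over 1 and 3.20 in cluster 3 over 1, in place of 1.25 and 2.51, and on CPM (reads scaled to equal depth, with no length) these ratios were 2.17 and 3.92. In 9 of 52 libraries with at least 10 reads of Gpr3, that cell among them, the effective length implied by TPM and reads was short. It was under 25% of the effective length of the longest coding transcript, which is less than its full length.

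Reads of Gpr3 share ground with another gene. Gpr3 (chr4:133209340-133212536, GRCm38) overlaps Cd164l2 on the other strand by 406 bases, and the kit does not mark strand. Mean Cd164l2 was 10.9, 176 and 559 TPM in clusters 1, 2 and 3, so it moved with Gpr3 (Spearman's rho 0.333 across all cells). Of the 96 cells with at least 10 TPM of Cd164l2, 41 had Gpr3 listed at 0. Its part in the Gpr3 values was not tested. The related receptors that can also raise oocyte cAMP were rare: Gpr12 reached 1 TPM in 1 cell, and Gpr6 was listed at 0 in every cell, where 3 cells, taken as the limit that a count of 0 allows, would be a detected share of 2.17%.

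Adcy3, which encodes an adenylyl cyclase that makes cAMP, was found at 0.1 TPM or more in 6 of 19, 17 of 86 and 8 of 33 cells of clusters 1, 2 and 3. TPM ran from 0 (median 0) to 14 in cluster 1, to 587 in cluster 2 and to 48.5 in cluster 3, with medians of 0 in all 3 clusters. Neither share nor median set a cluster apart, and the ratios rested on single cells. Mean TPM was 2.11, 9.96 and 2.34, which made Adcy3 higher in cluster 2 over 1 (log2 ratio 1.82) and lower in cluster 3 over 2 (-1.72). Without cell 13 of cluster 2 these ratios were 0.42 and -0.32, and neither was called. That cell had 587 TPM from 990 reads, which implies an effective transcript of 196 bases, while the longest coding transcript has 4962 bases. Without cell 91 of cluster 3 (48.5 TPM), Adcy3 was instead called lower in cluster 3 over 1 (-0.72). Implied length was under 25% of the longest coding transcript's effective length in 7 of the 26 libraries with at least 10 reads of Adcy3. Adcy3 (chr12:4133103-4213525) also overlaps Cenpo on the other strand by 17522 bases of gene span, and Cenpo had a mean of 9.25 TPM, with a rho of 0.111 with Adcy3. Its part was not tested. Among other cyclases, Adcy9 (mean 3.75 TPM) reached 1 TPM in 53 cells and the soluble cyclase Adcy10 (mean 6.34 TPM) in 33, against 24 for Adcy3.

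Pde3a, which encodes the cAMP phosphodiesterase of the oocyte, was listed at a trace in many cells and above 1 TPM in 2, 15 and 20 cells of clusters 1, 2 and 3. Its TPM ran from 0 (median 0.0104) to 38.9 in cluster 1, from 0 (median 0.0258) to 71.5 in cluster 2 and from 0 (median 3.57) to 34.1 in cluster 3. Cluster 3 was high in its bulk of cells while the highest single values lay in clusters 1 and 2. Mean TPM was 2.39, 2.13 and 4.65, with a log2 ratio of -0.11 in cluster 2 over 1 and 0.85 in cluster 3 over 2. In cluster 1, 1 cell had 38.9 TPM from 62.2 reads, and without it the ratio of cluster 2 over 1 was 1.20, called higher. The ratio of cluster 3 over 1 was 0.74, which was 2.05 without that cell and 0.48, no longer called, without the cell of 34.1 TPM in cluster 3. Mean CPM was 3.52, 4.92 and 26.5 in clusters 1, 2 and 3, so cluster 2 lay above cluster 1 on that scale. How often Pde3a was found depended on the rule, since 42.8% of all cells had 0.1 TPM, 26.8% had 1 TPM and 72.5% had 1 read on its transcript of 12302 bases (gene at chr6:141249269-141507448). In 16 of 53 libraries with at least 10 reads, the implied length was under 25% of that transcript's effective length. By gene span, Pde3a overlaps Gm10400 (3835 bases) and Gm43958 (3544 bases) on its own strand and Gm28523 (741 bases) on the other. The part of these 3 genes in the Pde3a values was not tested. Mean Pde3b, the related phosphodiesterase, was 10.5, 9.56 and 3.30 TPM in clusters 1, 2 and 3. Pde3a was the higher of the pair in 3 of 19, 27 of 86 and 23 of 33 cells, so the order of the pair turned between clusters 2 and 3.

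Wee2, which encodes the oocyte kinase that places the inhibitory phosphate on CDK1, had the highest ratio of cluster 3 over 1 among the members (except when the order of cells was cut into 3 equal parts, where Mos had it). In cluster 1 it was listed at 0 in 16 of 19 cells and reached 1 TPM in 1 cell, with a highest value of 1.33 TPM and 32 reads over the cluster. In cluster 2 it ran from 0 (median 0) to 291 TPM, and in cluster 3 from 0 (median 18.4) to 427 TPM. Of 33 cells in cluster 3, 27 had at least 1 TPM. The ranges of clusters 2 and 3 overlapped over most of their span, and cluster 1 met them at the low end only. At least 0.1 TPM was found in 5.26% (exact interval 0.133 to 26%), 37.2% (27 to 48.3%) and 84.8% (68.1 to 94.9%) of cells. Mean TPM was 0.0751, 14.7 and 41.7. The log2 ratio was 3.86 in cluster 2 over 1, 1.45 in cluster 3 over 2 and 5.31 in cluster 3 over 1, and leaving out single cells kept the last between 4.83 and 5.41.

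The relatives of Wee2 did not share this pattern. Mean Wee1, the kinase of dividing cells that does the same step, was 54.8, 42.7 and 32.8 TPM in clusters 1, 2 and 3, and mean Pkmyt1, the membrane-bound kinase that also phosphorylates CDK1, was 76.7, 88.7 and 62.5 TPM. Wee2 exceeded Wee1 in 1 of 19, 16 of 86 and 17 of 33 cells. It exceeded Pkmyt1 in 0 of 19, 9 of 86 and 7 of 33 cells, so transcripts of this step were mostly those of Pkmyt1 and Wee1 in cluster 1 and included all 3 genes in cluster 3.

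**Figure D2:**
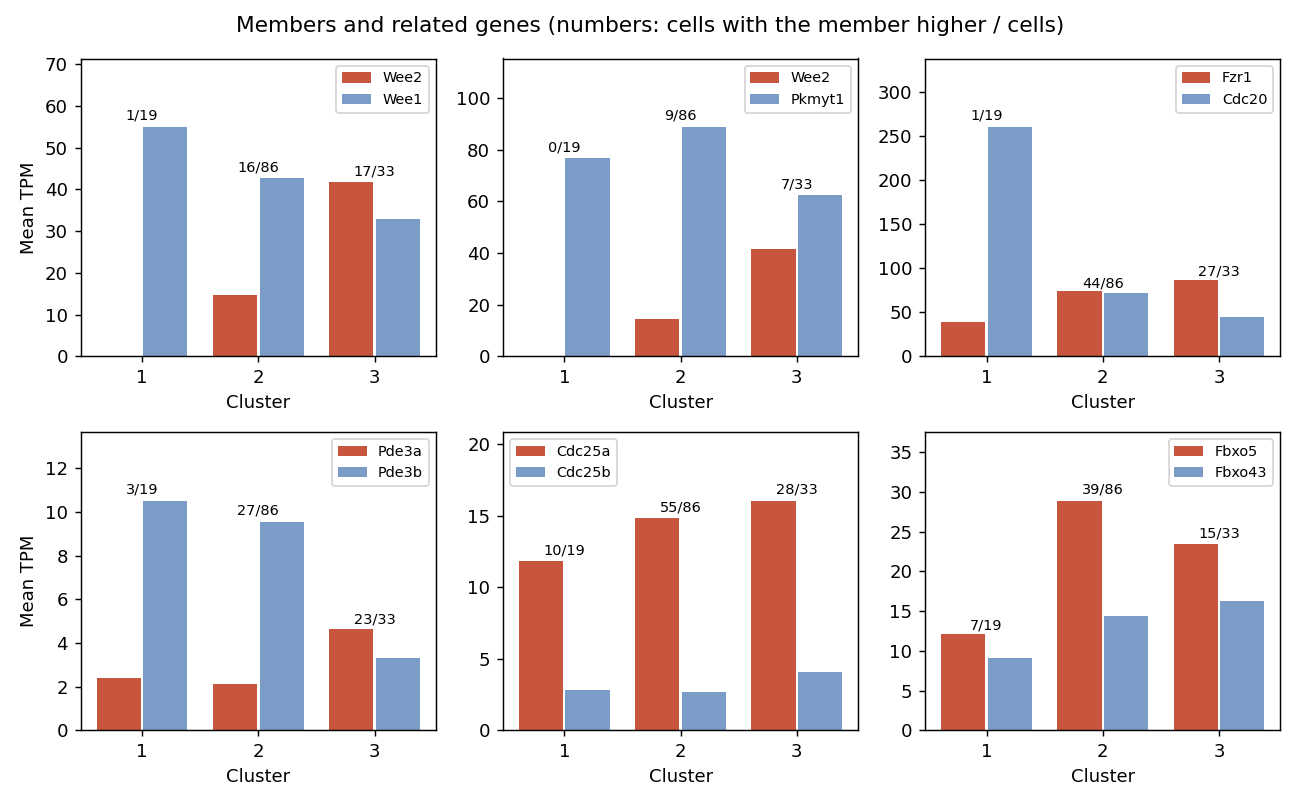
Mean TPM of a member (red bars) and of a related gene (blue bars) in clusters 1, 2 and 3, with axes from 0. Numbers above the bars give the cells in which the member was the higher of the pair over the cells of the cluster. Wee2 overtakes Wee1 in mean TPM in cluster 3, where 1 cell had 427 TPM of Wee2. Fzr1 is close to Cdc20 in cluster 2 (73.7 and 71.5 TPM) and above it in cluster 3. Pde3a overtakes Pde3b in cluster 3.

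Cdc25a, one of the phosphatases that remove the inhibitory phosphate from CDK1 and CDK2, was present in most cells of every cluster. Its TPM ran from 0 (median 4.81) to 55.2 in cluster 1, from 0 (median 4.82) to 101.2 in cluster 2 and from 0 (median 13.3) to 67.1 in cluster 3. The ranges overlapped almost wholly, and the clearest difference was that 32 of 33 cells of cluster 3 had 0.1 TPM or more, against 11 of 19 and 54 of 86. Mean TPM was 11.8, 14.8 and 16, with log2 ratios of 0.30 (cluster 2 over 1) and 0.11 (cluster 3 over 2) that were not called. Without cell 16 of cluster 1 (55.2 TPM), the ratio of cluster 2 over 1 was 0.60 and that of cluster 3 over 1 was 0.71, both called higher. For this gene (chr9:109875579-109893895), 69 of the 100 libraries with at least 10 reads implied 80% or more of the longest coding transcript's effective length. A retained-intron transcript of 3755 bases is also annotated, and which transcript was read was not tested.

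Cdc25b, the family member needed for mouse oocytes to resume meiosis, was scarce. It lies at chr2:131186949-131198497 and overlaps Spef1 on the other strand by 334 bases, with a rho of -0.079 between the pair. At least 0.1 TPM was found in 4 of 19, 14 of 86 and 18 of 33 cells of clusters 1, 2 and 3, with medians of 0, 0 and 1.58 TPM and highest values of 39.7, 68 and 25.8 TPM. As for Pde3a, more cells of cluster 3 had it, while the highest single values lay outside that cluster. Mean TPM was 2.80, 2.69 and 4.07, with log2 ratios of -0.04 and 0.46 that were not called. Mean CPM was instead 7.03, 1.5 and 7.16, with log2 ratios of -1.69, called lower, and 1.71, called higher. The former rested on the cell of 39.7 TPM in cluster 1, which held 1435 of the 1814 reads of that cluster, and was -0.097, not called, without it. The implied length was under 25% of the longest coding transcript's effective length in 8 of 28 libraries with at least 10 reads. Cells 7, 67 and 99 of cluster 2 were among these. Without the cell of 39.7 TPM (1435 reads) in cluster 1, the ratio was 1.08 in cluster 2 over 1 and 1.54 in cluster 3 over 1, and without any one of cells 7, 67 and 99 of cluster 2 it was 0.63, 0.80 and 0.67 in cluster 3 over 2, all called higher. Cdc25a had the higher TPM than Cdc25b in 93 cells and the lower in 17. Cdc25c, the third phosphatase of the family, had a mean of 2.05, 2.08 and 2.59 TPM in the 3 clusters.

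Fzr1, the activator that directs APC/C to cyclin B in prophase, was found at 0.1 TPM or more in 15 of 19, 74 of 86 and 33 of 33 cells of clusters 1, 2 and 3 (gene at chr10:81366222-81378516). Its TPM ran from 0 (median 33) to 91.9 in cluster 1, from 0 (median 62.2) to 333 in cluster 2 and from 15.9 (median 79.1) to 202 in cluster 3. No cell of cluster 3 lacked it, and the upper part of clusters 2 and 3 lay above all cells of cluster 1. Mean TPM was 38.6, 73.7 and 86.7, with a log2 ratio of 0.92 in cluster 2 over 1 (0.84 to 1.03 with each cell left out) and 0.23, not called, in cluster 3 over 2. Cdc20, the other APC/C activator, which acts in metaphase and anaphase, had means of 260, 71.5 and 44.9 TPM in the opposite order. Fzr1 was the higher of the pair in 1 of 19, 44 of 86 and 27 of 33 cells.

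Fbxo5, an APC/C inhibitor (gene at chr10:5799160-5805600), ran from 0 (median 0) to 66.1 TPM in cluster 1, from 0 (median 5.53) to 143.9 in cluster 2 and from 0 (median 14) to 105.6 in cluster 3. It was listed at 0 in 10 of 19, 34 of 86 and 6 of 33 cells. At least 0.1 TPM was found in 8 of 19, 50 of 86 and 26 of 33 cells. Mean TPM was 12.1, 28.9 and 23.4, with a log2 ratio of 1.19 in cluster 2 over 1 and -0.29 in cluster 3 over 2. The latter was not called. It was 0.61 on TPM relative to spike-ins, beside a median of 0.56 over all genes tested. When medians replaced means it was 1.20, beside a median of 0 over all genes tested. Its relative Fbxo43 (EMI2), which holds the metaphase II arrest, had means of 9.14, 14.4 and 16.2 TPM, and Fbxo5 was the higher of the pair in 61 cells and the lower in 67.

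Mos, the kinase at the head of the MAPK pathway of the maturing oocyte, was listed at 0 in 18 of 19 cells of cluster 1, and the remaining cell had 0.235 TPM from 2 reads. In cluster 2 it ran from 0 (median 0) to 68.1 TPM with 65 of 86 cells at 0, and in cluster 3 from 0 (median 14) to 95.9 TPM with 7 of 33 cells at 0. The cells with Mos were thus a minority of cluster 2 and a majority of cluster 3. At least 0.1 TPM was found in 5.26% (exact interval 0.133 to 26%), 20.9% (12.9 to 31%) and 75.8% (57.7 to 88.9%) of cells. Mean TPM was 0.0124, 4.64 and 20.2, and the log2 ratio was 2.48 in cluster 2 over 1, 1.91 in cluster 3 over 2 and 4.39 in cluster 3 over 1. Mos has a single transcript of 1449 bases (chr4:3870657-3872105), so no choice among transcripts enters its TPM.

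**Figure D3:**
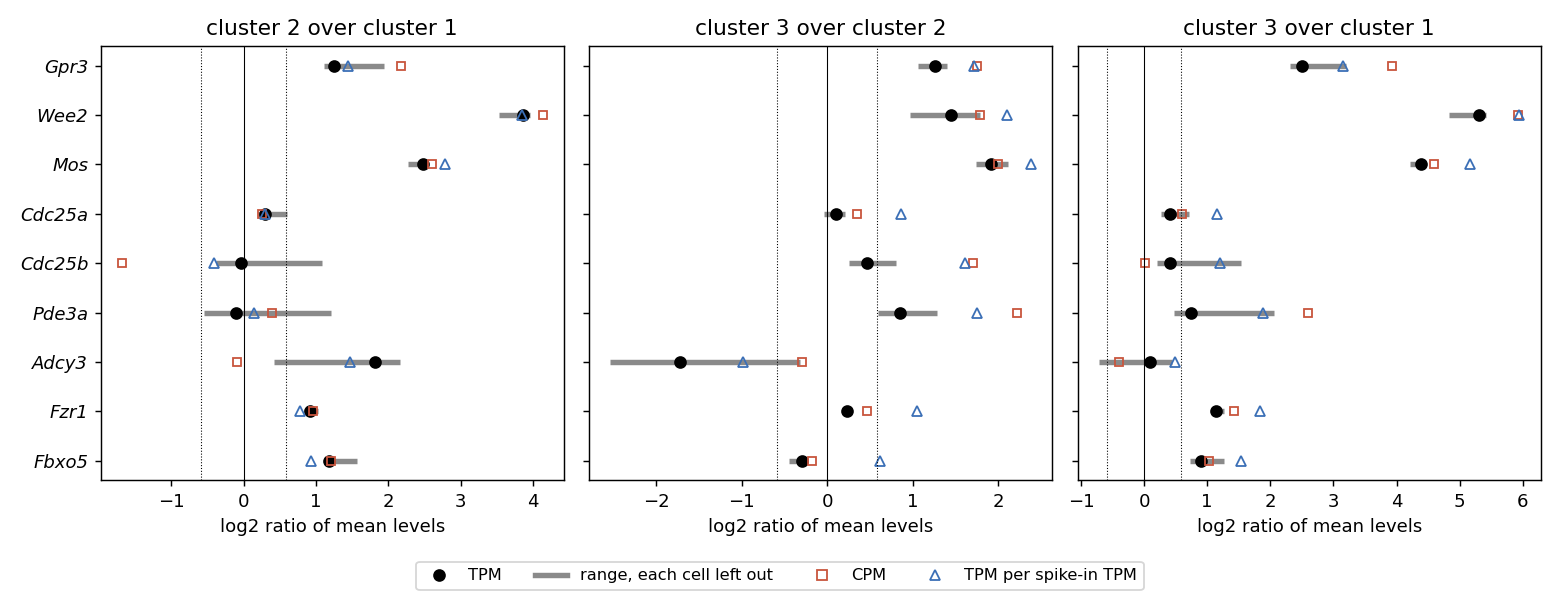
Log2 ratio of mean levels of each member in 3 comparisons of clusters (black points, TPM with 1 TPM added), with the range when each cell is left out in turn (grey bars) and the values on CPM (red squares) and on TPM per spike-in TPM (blue triangles). Dotted lines mark 1.5-fold. Gpr3, Wee2 and Mos lie past 1.5-fold on every scale shown, while the bars of Adcy3, Pde3a and Cdc25b are wide.

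On mean TPM, Gpr3, Wee2 and Mos were the 3 members higher in each of the 3 comparisons. With medians over cells the ratio of cluster 2 over 1 was 0 for all 3, since their medians were 0 in both clusters, and when the 2000 most variable genes made the clusters, Gpr3 was not called in cluster 3 over 2 (0.20). All 3 together had at least 1 TPM in 0 of 19 cells of cluster 1 (where the limit of 3 cells is 15.8%), 4 of 86 cells of cluster 2 and 14 of 33 cells (42.4%) of cluster 3. None of the 3 reached 1 TPM in 16, 40 and 1 cells. Of the 36 cells with Mos, 26 had Wee2 (72.2%; exact interval 54.8 to 85.8%), and those 26 were 47.3% of the 55 cells with Wee2. Of the cells without Mos, 29 had Wee2 (28.4%; 19.9 to 38.2%). Within cluster 2 the shares with Wee2 were 6 of 13 cells with Mos and 21 of 73 cells without, and within cluster 3 they were 20 of 23 and 7 of 10.

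Across all cells, Spearman's rho between members had a median of 0.118 over 36 pairs and ran from -0.062 to 0.456, with 2 pairs at 0.3 or more. The highest was that of Wee2 and Mos, at 0.456, and it was 0.276 within the 86 cells of cluster 2 and 0.077 within the 33 cells of cluster 3. Gpr3 and Mos had 0.348 over all cells, 0.238 within cluster 2 and 0.065 within cluster 3, so both pairs had lower values within a cluster than over all cells. Cells share depth and composition within a library: rho of TPM with assigned reads was 0.276 for Gpr3, 0.210 for Wee2 and 0.274 for Mos, and rho with the spike-in share was -0.441, -0.340 and -0.419. The part of depth and RNA content in these correlations was not tested.

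When the cells were ordered along the leading principal component that the feature genes gave and cut into 5 bins of 27 or 28 cells, the shares of cells with at least 1 TPM of Gpr3, Wee2 and Mos grew from bin to bin. Gpr3 was found in 2, 6, 11, 12 and 20 cells of bins 1 to 5, Wee2 in 2, 5, 10, 16 and 22 cells and Mos in 0, 1, 4, 11 and 20 cells. Gpr3 and Mos had their highest means in bin 5 (13.3 and 17.5 TPM). The mean of Wee2 was 44.6 TPM in bin 4, which held its 2 highest cells (427 and 291 TPM), and 27.1 TPM in bin 5, whereas its median was 6.81 TPM in bin 4 and 18 TPM in bin 5. Cdc25b and Pde3a reached 1 TPM in 2 to 4 and in 3 to 7 cells of the first 4 bins, and in 16 and 19 cells of bin 5. Mean Cdc25b was 4.86 TPM in bin 4 and 4.70 TPM in bin 5. Mean Pde3a was 3.59 TPM in bin 2 and 5.13 TPM in bin 5. Fzr1 was found in 21 to 23 cells of bins 1 to 4 and in 28 of 28 cells of bin 5. Adcy3 showed no steady course, at 9, 5, 2, 6 and 2 cells of bins 1 to 5, and its mean of 24.2 TPM in bin 4 contains cell 13. Spearman's rank correlation with the order was 0.572 for Wee2, 0.566 for Mos, 0.452 for Gpr3, 0.377 for Pde3a, 0.293 for Fzr1, 0.272 for Cdc25b, 0.226 for Fbxo5, 0.202 for Cdc25a and -0.103 for Adcy3.

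**Figure D4:**
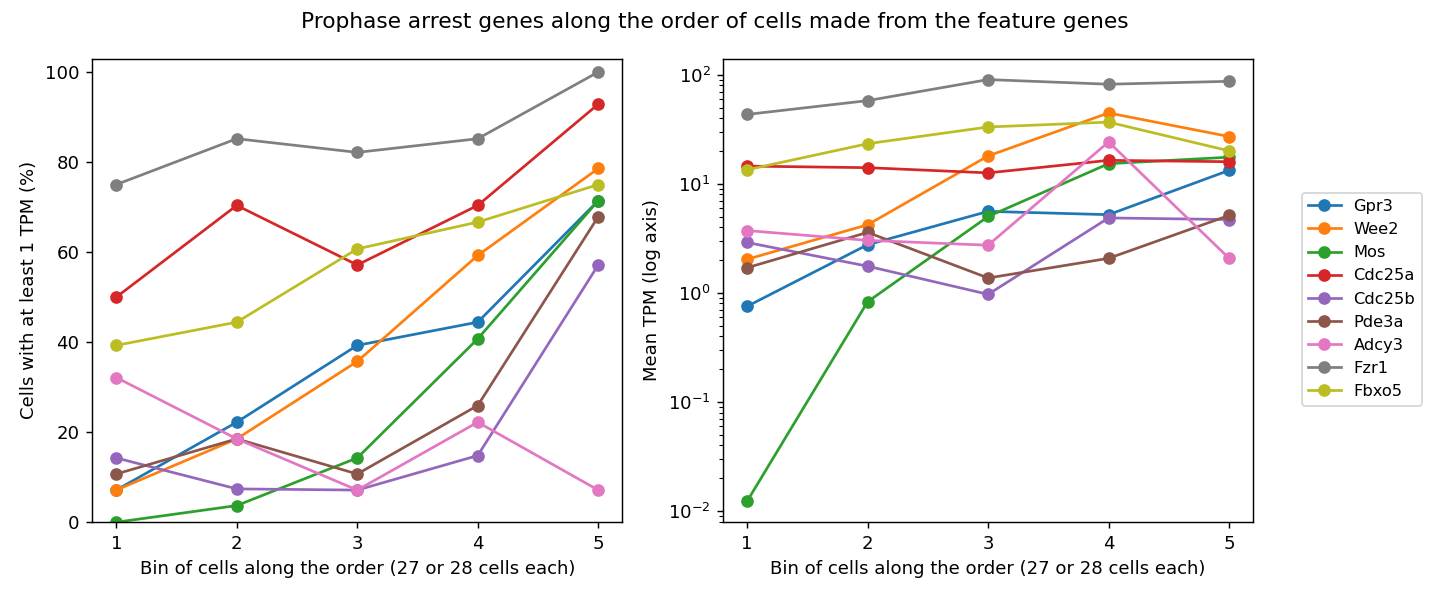
Share of cells with at least 1 TPM (left, %) and mean TPM (right, log axis) of each of the 9 genes in 5 bins of 27 or 28 cells along the order of cells. Wee2, Gpr3 and Mos gain cells in every bin, whereas Cdc25b and Pde3a gain most of theirs in bin 5, and the Adcy3 peak in bin 4 contains 1 cell of 587 TPM.

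The other listed genes of each pathway were mixed, and their shares called are read against those of all genes given above (30.4% higher and 26.8% lower in cluster 2 over 1, 21.5% and 32% in cluster 3 over 2, 32% and 37.9% in cluster 3 over 1). The values are TPM, and on TPM divided by spike-in TPM, an alternative for these lists chosen after seeing the data, 48.7% of all genes were higher and 14.3% lower in cluster 3 over 2 (45.1% and 25.3% in cluster 3 over 1), so that many of the lower calls in cluster 3 were lost. Of 18 listed genes of cAMP and protein kinase A with enough signal, 5 were higher and 1 lower in cluster 2 over 1, 1 of 17 was higher and 6 lower in cluster 3 over 2, and 4 of 18 were higher and 6 lower in cluster 3 over 1. Relative to spike-ins, 6 were higher and 3 lower in cluster 3 over 2, beside 48.7% and 14.3% of all genes. In cluster 3 over 1 the counts on that scale were 6 and 4, beside 45.1% and 25.3%. The higher ones included Gja4, the connexin of the oocyte side of gap junctions (0.0462, 39 and 78.8 TPM in clusters 1, 2 and 3), and the kinase anchors Akap1 (4.44, 19.6 and 23.4 TPM) and Akap7. Gnas, which encodes the Gs subunit that couples GPR3 to cyclase, was lower in cluster 3 over 1 on TPM (120.3, 104.97 and 61.3 TPM, log2 ratio -0.96), but not relative to spike-ins (-0.21). The kinase subunit Prkar1a was lower on both scales (265, 190 and 91.5 TPM, log2 ratios -1.53 and -0.72).

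Of the 17 genes around CDK1, 3 were higher and 2 lower in cluster 2 over 1. The counts were 3 and 4 in cluster 3 over 2, and 6 and 6, of 16 genes, in cluster 3 over 1. Relative to spike-ins they were 10 and 2 (all genes 48.7% and 14.3%), and 8 and 2 (45.1% and 25.3%). Cdk1 itself (44.2, 58.4 and 55.6 TPM) was not called on TPM and was called higher in cluster 3 over 1 relative to spike-ins (1.15). Ccnb1 was higher in cluster 3 over 1 (48.6 and 88.6 TPM), and the meiotic cyclin Ccnb3 was lower in both steps (548, 48.2 and 2.11 TPM), each on both scales. Of 21 genes of APC/C and its regulators, 2 were higher and 3 lower in cluster 2 over 1. The counts were 3 and 7 in cluster 3 over 2, and 5 and 7 in cluster 3 over 1. Relative to spike-ins they were 12 and 0 (all genes 48.7% and 14.3%), and 9 and 3 (45.1% and 25.3%). The APC/C ubiquitin-conjugating enzyme Ube2c had the largest ratio of cluster 3 over 1 among them (log2 3.64), at 125.96, 328 and 1576 TPM in clusters 1, 2 and 3. The core subunits Anapc4 (176, 156 and 82.4 TPM) and Anapc5 (354, 322 and 182 TPM) were lower in cluster 3 over 1 on TPM, but not called relative to spike-ins (-0.21 and -0.029).

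Of 7 listed genes of the MAPK pathway of MOS and of the translation of its transcript, 4 were higher and 2 lower in cluster 2 over 1. The counts were 2 and 1 in cluster 3 over 2, and 4 and 2 in cluster 3 over 1. Relative to spike-ins they were 5 and 0 (all genes 48.7% and 14.3%), and again 5 and 0 (45.1% and 25.3%). Mapk3 (ERK1) was higher in cluster 3, at 7.08, 9.74 and 54.6 TPM in clusters 1, 2 and 3. Cpeb1, a regulator of the translation of stored transcripts such as Mos, had 147, 287 and 268 TPM. These values are over the same 19, 86 and 33 cells, without a test.

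Among 8737 genes with a mean of at least 10 TPM, the 3 whose TPM ranked most like that of Mos across all cells were Nlrp4f (rho 0.569), Padi6 (0.557), an oocyte gene of the cytoplasmic lattices, and Far2os1 (0.549). For Wee2 they were genes known by clone names (0.585 and 0.576) and Nexn (0.574), which encodes an actin-binding protein. Gpr3 was most like RP24-222N4.2 (0.507), Rhpn2 (0.497) and Aunip (0.491). Pde3a was most like Zp3 (0.472), Prr23a3 (0.472) and Foxr1 (0.450), and Fzr1 most like Gpsm2 (0.458), Marf1 (0.415) and a clone-named gene (0.411). Cdc25b had RP23-323L3.5 (0.414), Padi6 (0.402) and Noto (0.394), and Adcy3 had Caap1 (0.405), RP23-86H21.4 (0.385) and Rgp1 (0.370). Fbxo5 had Lsm14b (0.384), Ube2q2 (0.38) and RP23-380O16.4 (0.376), and Cdc25a had Zranb3 (0.370), Coa7 (0.369) and B4galt4 (0.365). These are the top of many ranked values over cells that share depth and cluster.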

How the data were processed

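Single germ cells were profiled by Smart-seq2. The authors ran Salmon with its bias option on mm10 plus the spike-in sequences, and deposited, for each gene symbol, TPM (a level per transcript length, scaled to the same total in every cell) and estimated counts of reads, which need not be whole. FastQC and Salmon are named in the submitters' processing notes. The annotation release is not given in the sources used here. Libraries were unstranded, so strand does not assign reads in bases that genes on opposite strands share. The deposited gene length was not used. TPM of a gene sums transcripts whose assumed lengths differ between cells, so a few reads on a short transcript can give a high TPM. Implied effective lengths were taken from TPM, estimated counts and single-transcript genes.

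Libraries with Ddx4 below 1 TPM were left out, and pairs with Pearson's r above 0.95 were averaged. All 146 libraries lay within the 3 quality limits given in the study's methods, applied to the deposited values (over 500000 reads, under 35% mitochondrial, under 4% spike-in). Clustering was repeated with Seurat 5.3.0 in R 4.3.3 on 20 feature genes with 10 components, 20 neighbours and resolution 0.2. Taf4b was used here as 1 of the 20, although the study's text does not name it with the others. The set may therefore differ from that of the study in this gene. Clusters were numbered so that cluster 1 had the most Sycp2, Stag3 and Taf7l. These rebuilt clusters differ in their total and sizes from those that the study states. Doublets were not called because cells were picked singly. Ratios were log2 of mean TPM plus 1, called at 1.5-fold, among genes that averaged 1 TPM or more in a cluster of the pair. Detection was 0.1 TPM, with exact (Clopper-Pearson) 95% intervals, and for a count of 0 a limit of 3 cells. Both cover counting error only, for cells with the gene detected. Python 3.11.15, pandas 2.3.3, NumPy 2.4.6 and SciPy 1.17.1 were used, and the ratio calculation was tested on simulated data. Coordinates and overlaps are from GENCODE M21 (GRCm38). The members and lists were chosen with earlier results of these data known. Genes named are the 9 members, relatives of members, genes with large ratios in the lists, and for each member the 3 genes with the highest rho (3 of them given only as clone-named genes). Gnas, Prkar1a, Cdk1, Ccnb1, Anapc4, Anapc5 and Cpeb1 were named after their values were seen, for their roles, as were Cd164l2 and Cenpo for their overlap. Spef1 and the genes that overlap Pde3a were named for their overlap too. Alternatives changed the scale, pseudocount, cells and clusters.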

Additional observations from a re-analysis of the deposited data

How the results depend on the processing

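The calls of Gpr3, Wee2 and Mos as higher in cluster 3 over cluster 1 held under every alternative run. Adcy3 changed direction: its log2 ratio of cluster 2 over 1, 1.82 on TPM, was -0.14 with the mean of log2(TPM + 1), -0.094 on CPM and -0.27 with the library lacking Ddx4 put back and the cells clustered again, and its ratio of cluster 3 over 2 was 1.84 when the order of cells was cut into 3 equal parts. The cause was not tested. With medians over cells in place of means, 2 members were higher in cluster 2 over 1 in place of 6 (Gpr3, Wee2, Mos and Adcy3 lost the call), and 7 higher and 0 lower in cluster 3 over 2 in place of 4 and 1. In the latter comparison 7 were higher and 0 lower with the mean of log2(TPM + 1), where all genes had a median of 0.10. With TPM divided by spike-in TPM 8 were higher, beside 48.7% of all genes, whose median was 0.56 against -0.19 on TPM. On CPM and with 3 equal parts of the order, 0 were lower. Shares of all genes called are not given for the other changes of scale, cells or clusters. The counts of members under those are therefore not set against a background. In cluster 2 over 1, 1 member, Cdc25b, was lower on CPM (-1.69) and with the library lacking Ddx4 put back (-0.81). In cluster 3 over 1, 1 (Adcy3) was lower with that library put back and without the 11 cells rich in blood markers. With each cell left out in turn, 5 to 7, 4 to 5 and 5 to 7 members were higher, and 0, 0 to 1 and 0 to 1 were lower, in cluster 2 over 1, 3 over 2 and 3 over 1. When the 2000 most variable genes made the clusters, 5, 3 and 4 members were higher, and Gpr3 was not called in cluster 3 over 2 (0.20). Without the filter on low values, 12.6% to 22.3% of all genes were called in a direction. Of 270 ratios of members under alternatives other than leaving out a cell, 226 kept their call and 4 reversed. Among the 226, ratios that were not called could change sign. No paired analysis was possible because the cells form 1 group with no pairing. Depth limits the low members: the 2 reads of Mos in the only cell of cluster 1 that had any are 0.235 TPM.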
